A study of Mus musculus with 12 samples.

Results

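A set of 7 loci was followed through all 12 libraries of a knockdown experiment on suprabasin (Sbsn), a gene for a secreted protein of the upper epidermis. They were picked from the table of 21947 counted loci for a small p-value and an equal direction of siSbsn minus siControl in both batches, and they are AK172064+Xkrx, Mtus1+B430010I23Rik, Aim1, Fam53b, Exoc3l4, Bcl2l15 and Tm4sf1. All 7 passed the filter on low counts, as did 12857 loci in all. Since the difference between siSbsn and siControl chose them, that difference is given as a description, without a test.

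The cells were primary keratinocytes from BALB/c neonatal mice, first grown at 0.05 mM calcium and then differentiated at a final 0.12 mM. Batch 1 held 2 libraries without siRNA, 2 with siControl and 2 with siSbsn, and batch 2 held 3 with siControl and 3 with siSbsn. siSbsn was a pool of siRNAs against Sbsn and siControl a pool of non-targeting siRNAs, each given at 75 pmol, and RNA was taken 48 hours after transfection. For the libraries without siRNA, the sources used here give no harvest time and do not say whether transfection reagent was added. The study's methods state 3 replicates per condition, while batch 1 held 2 libraries per condition. No label ties the libraries to separate animals or cultures, so the spread between libraries may be technical. That spread went beyond counting error, with a chi-square per degree of freedom between 2 libraries of a group of 84.7 to 213 in batch 1. In batch 2 it was 4.71 to 53.

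Keratinocytes of the basal layer divide, and a rise in calcium makes them leave the cell cycle, tighten their contacts and build the cornified envelope. The loci do not form one pathway. Xkrx belongs to the XK family of membrane proteins, whose best-known members take part in phospholipid scrambling, and Mtus1 encodes a microtubule-associated protein studied as a tumor suppressor. Aim1, now named Crybg1, encodes a protein with beta-gamma crystallin domains that was described in melanoma and binds actin, and Fam53b is known for its part in moving beta-catenin into the nucleus. Exoc3l4 resembles the Exoc3 subunit of the exocyst, the complex that tethers secretory vesicles to the plasma membrane. Bcl2l15 is a member of the BCL2 family of apoptosis regulators, and Tm4sf1 encodes an L6 family protein with 4 membrane-spanning segments found on the surface of many epithelial tumors and on endothelium.

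The positions are on mm10. AK172064+Xkrx covers chrX:134149045-134162983, where the GENCODE gene Xkrx has 3 exons on the minus strand inside the span of a Nox1 annotation on the same strand. A further row of the table names this locus together with Nox1+Mir3112+Cstf2 and was not added to it. Mtus1+B430010I23Rik covers chr8:40990912-41133726 and counts Mtus1, with 14 exons on the minus strand, together with its antisense transcript B430010I23Rik. Because the strand setting of the counting could not be found in the sources used here, reads of these antisense partners cannot be told apart. Aim1 covers chr10:43950307-44004846 on the minus strand, which is the 3' part of the GENCODE gene Crybg1, whose annotation reaches position 44148853. Rtn4ip1, on the plus strand, and the pseudogene Gm10812 overlap it. Fam53b covers chr7:132712084-132813886 with 5 exons on the minus strand, inside a long Fgfr2 annotation. Exoc3l4 covers chr12:111417430-111431680 with 13 exons on the plus strand and has an antisense gene, Gm10425. Bcl2l15 covers chr3:103832696-103854618 with 4 exons on the plus strand, overlapped by the readthrough gene Gm43064. Tm4sf1 covers chr3:57287064-57301919 on the minus strand. Each of these overlaps leaves the origin of some reads uncertain.

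Promoter records of RefSeq on GRCm38.p6 matched 6 of the 7 loci, and Mtus1 had no record. The 250 bases before the start are shown for 3 of them, Fam53b because it was the only one of the 6 with a match to any motif searched, Bcl2l15 because its difference between siSbsn and siControl was the largest of the 7, and Crybg1 because the counted Aim1 locus ends where this internal start lies. The motifs were TGAGTCA for AP-1, CACGTG for the E-box, CCGGAAG for ETS factors, GGGCGG for the GC box and TATAAA for the TATA box, each read on both strands. They were present in 4.46%, 6.02%, 6.91%, 32.7% and 12.4% of 32851 promoter windows of this length. Capitals mark the CCGGAAG 225 bases and the CCGCCC, a GC box on the other strand, 60 bases before the Fam53b start.
Fam53b, chr7:132813849-132814098, minus strand: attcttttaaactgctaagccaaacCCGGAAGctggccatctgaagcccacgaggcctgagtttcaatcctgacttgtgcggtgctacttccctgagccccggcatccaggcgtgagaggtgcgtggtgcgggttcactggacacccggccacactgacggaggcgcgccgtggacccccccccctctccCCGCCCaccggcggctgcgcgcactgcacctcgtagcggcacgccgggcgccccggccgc
Bcl2l15, chr3:103832446-103832695, plus strand: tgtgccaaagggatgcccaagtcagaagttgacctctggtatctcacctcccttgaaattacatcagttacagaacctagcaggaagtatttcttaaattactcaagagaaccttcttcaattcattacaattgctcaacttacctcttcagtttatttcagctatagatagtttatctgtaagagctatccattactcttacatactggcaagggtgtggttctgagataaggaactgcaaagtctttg
Crybg1, chr10:44004847-44005096, minus strand: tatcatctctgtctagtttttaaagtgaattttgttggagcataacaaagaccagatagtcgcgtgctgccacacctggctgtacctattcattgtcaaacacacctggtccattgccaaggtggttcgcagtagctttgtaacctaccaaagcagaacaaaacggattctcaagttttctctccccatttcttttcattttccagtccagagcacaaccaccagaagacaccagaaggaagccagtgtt
The windows also differed in base composition, with a GC content of 68.0% for Fam53b, 59.6% for Exoc3l4, 52.0% for Xkrx, 48.0% for Tm4sf1, 44.0% for Crybg1 and 38.8% for Bcl2l15. A match is only a run of letters, and a window without one says nothing about the factor.

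Library totals ran from 27934836 to 49553923 counts. Levels are CPM, the count of a locus per 1e6 counts of the normalized library. The targeted gene Sbsn was at 123 ± 1.95 CPM in siSbsn and 387 ± 64.9 CPM in siControl of batch 2 (SD, n = 3 each). In batch 1 siControl gave 1189 and 1356 CPM, while the library labelled siSbsn batch 1 replicate 1 gave 1965 CPM and siSbsn batch 1 replicate 2 gave 696 CPM. The library labelled siSbsn batch 1 replicate 1 thus goes against its label for Sbsn, and directions in batch 1 rest on it. Keratinocyte markers summed to between 16577 and 47063 CPM, and the 6 fibroblast markers to between 358 and 1163 CPM.

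The first 4 loci were higher with siSbsn. For Xkrx, the siControl libraries of batch 1 held 83.5 and 92 CPM and the siSbsn libraries 142 and 138 CPM. Those of batch 2 held 36.6, 37.5 and 40.5 CPM with siControl and 48.6, 48.6 and 49.7 CPM with siSbsn. The groups did not overlap in either batch, and the siSbsn mean was 159% of the siControl mean in batch 1 and 128% in batch 2. Libraries without siRNA, at 129 and 103 CPM, lay between the siControl and siSbsn libraries of their batch. By group mean the order was siSbsn batch 1, no siRNA, siControl batch 1, siSbsn batch 2 and siControl batch 2, and no neighbours in it overlapped.

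Mtus1, with its antisense transcript, had 121 and 118 CPM with siControl in batch 1 against 180 and 191 CPM with siSbsn. In batch 2 the siControl libraries were at 86.1, 89 and 77.5 CPM and the siSbsn libraries at 110, 106 and 111 CPM. Again no siSbsn library reached down to a siControl library of its batch. Without siRNA the level was 189 and 143 CPM, so that these libraries overlapped the siSbsn libraries but not the siControl libraries. The order of the means was siSbsn batch 1, no siRNA, siControl batch 1, siSbsn batch 2 and siControl batch 2, and its first neighbours overlapped.

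Aim1 had the highest level of the 4, with 166 and 199 CPM in siControl of batch 1 and 279 and 325 CPM in siSbsn. In batch 2 the siControl libraries held 213, 221 and 181 CPM and the siSbsn libraries 283, 273 and 274 CPM. Both no siRNA libraries, at 296 and 274 CPM, lay within the range of the siSbsn libraries of both batches. The 3 groups with the highest means, siSbsn batch 1, no siRNA and siSbsn batch 2, overlapped each other, as did the siControl groups, while no library crossed from one set to the other.

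Fam53b had 28.7 and 32.2 CPM with siControl in batch 1 against 42.5 and 47.3 CPM with siSbsn. In batch 2 the siControl libraries held 40.5, 39.1 and 34.5 CPM and the siSbsn libraries 49.2, 46.6 and 48.3 CPM. Cells without siRNA were at 40.8 and 37.5 CPM, below both siSbsn libraries and above both siControl libraries of batch 1. By mean, siSbsn batch 2 came before siSbsn batch 1, no siRNA, siControl batch 2 and siControl batch 1. The 2 siSbsn groups overlapped, and so did no siRNA and siControl batch 2.

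The other 3 loci were lower with siSbsn. Exoc3l4 was counted only 15 to 73 times per library, so its values carry the largest counting error of the 7. Batch 1 gave 2.63 and 1.94 CPM with siControl and 0.832 and 0.868 CPM with siSbsn. Batch 2 gave 0.784, 0.756 and 0.805 CPM with siControl and 0.427, 0.518 and 0.55 CPM with siSbsn. The siControl libraries of batch 1 lay above all others and the siSbsn libraries of batch 2 below all others. Those without siRNA, at 1.1 and 0.799 CPM, overlapped both siSbsn of batch 1 and siControl of batch 2.

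Bcl2l15 had 442 and 354 CPM with siControl in batch 1 against 103 and 126 CPM with siSbsn, a mean of 28.8% of siControl. The values of batch 2 were 74.1, 85.8 and 117 CPM with siControl and 50.3, 63.2 and 61.9 CPM with siSbsn, a mean of 63.3%. Between siControl and siSbsn of batch 1, without touching either, lay the no siRNA libraries at 144 and 235 CPM. In the order siControl batch 1, no siRNA, siSbsn batch 1, siControl batch 2 and siSbsn batch 2, only the third and the fourth overlapped.

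Tm4sf1 had 109 and 103 CPM with siControl in batch 1 against 67.3 and 65.1 CPM with siSbsn. For batch 2 the siControl libraries held 27.6, 30.1 and 37.3 CPM and the siSbsn libraries 23.2, 25.3 and 24.6 CPM. The groups did not overlap within either batch, although the gap in batch 2 was small. The no siRNA libraries held 66.8 and 84.5 CPM, of which the lower lay between both siSbsn libraries. The order of the means was the same as for Bcl2l15, and no siRNA and siSbsn batch 1 were the only neighbours in it that overlapped.

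**Figure D1:**
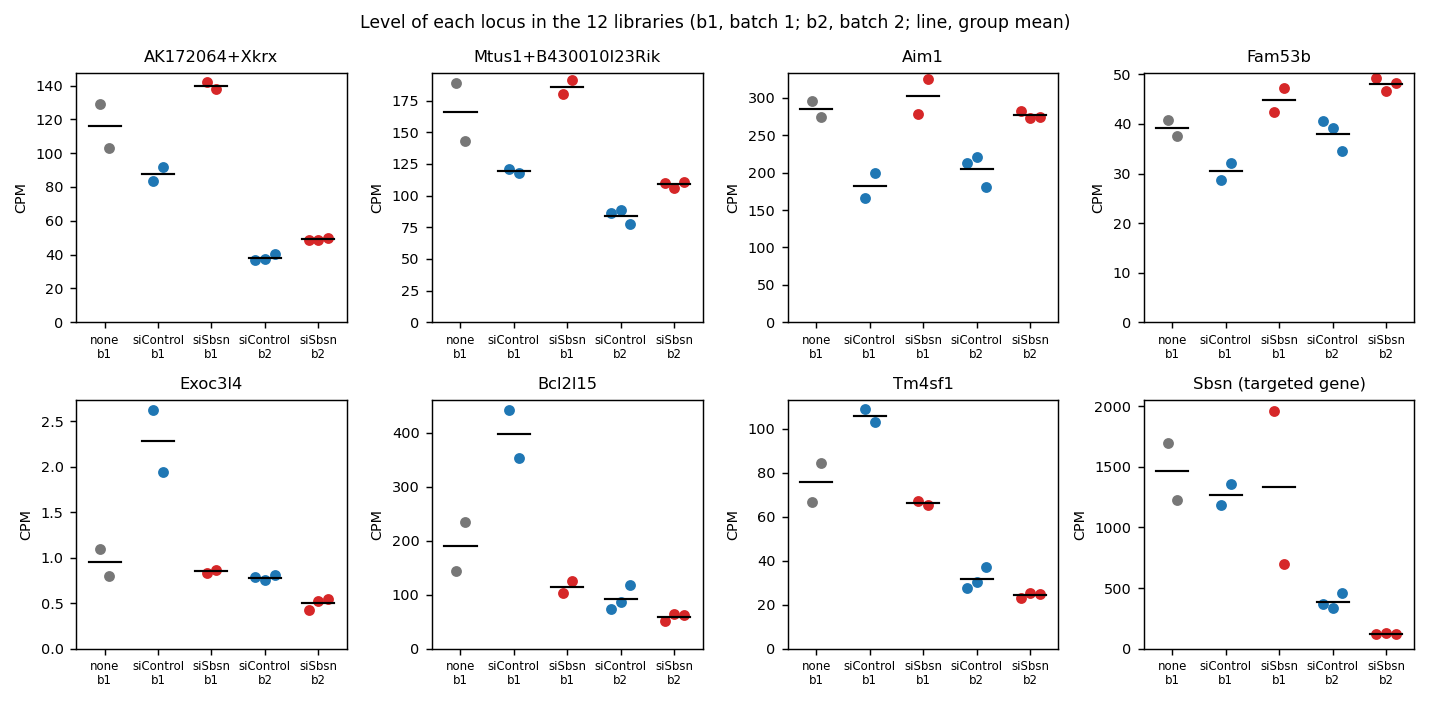
Each panel plots the CPM of 1 locus (y axis, linear from 0) in the 12 libraries by group (x axis), with a point per library and a line at the group mean; Sbsn, the targeted gene, is in the last panel. The siSbsn points lie above the siControl points of the same batch for 4 loci and below them for 3, while Sbsn itself is at 1965 CPM in 1 siSbsn library of batch 1.

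All 7 loci kept every siSbsn library on one side of every siControl library in both batches, 4 of them higher and 3 lower. Among all loci tested, 5.13% met the first condition and 4.22% the second, and nothing is read from the members' count because the direction was part of their choice. The library labelled siSbsn batch 1 replicate 1 had member levels close to those of siSbsn batch 1 replicate 2, despite its Sbsn level. In batch 1 the summed fibroblast markers were at 413 and 426 CPM in siControl, 488 and 1163 CPM in siSbsn and 482 and 928 CPM without siRNA. The siSbsn libraries thus differed widely from each other, as did those without siRNA. Batch 2 held 373 to 420 CPM in siControl and 358 to 393 CPM in siSbsn. None of the 6 markers was at 0, and their part in the batch 1 values was not tested.

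With batch in the model, the log2 fold change of siSbsn minus siControl was 0.49 ± 0.08 for Xkrx, 0.48 ± 0.08 for Mtus1, 0.56 ± 0.10 for Aim1 and 0.43 ± 0.08 for Fam53b (SE, n = 5 against 5). It was -1.0 ± 0.20 for Exoc3l4, -1.11 ± 0.22 for Bcl2l15 and -0.49 ± 0.10 for Tm4sf1. In edgeR's quasi-likelihood test, which called 0% of all 12857 loci higher and 0% lower, the smallest Benjamini-Hochberg adjusted p of any locus was 0.254, while 2464 loci had an unadjusted p under 0.05 and DESeq2 called 51 loci higher and 42 lower. A call meant an absolute log2 fold change over 0.5 with an adjusted p under 0.05. By unadjusted p over both batches the 7 loci held ranks 1, 2, 4, 6, 7, 8 and 12. Cdkn1b, Ptgds, Nfkbid, Csf3 and Etv4 ranked between them and were not chosen, and Plaur and Scel came at ranks 13 and 14, just outside. The last locus inside, Bcl2l15, had a log2 fold change of -1.11 against -0.64 for Plaur. Ordered instead by the larger of the p-values of batch 1 alone and batch 2 alone, among the 9192 of 12559 loci with an equal direction, all but Bcl2l15 stood lower, at rank 3 for Bcl2l15, 60 for Exoc3l4, 86 for Tm4sf1, 104 for Aim1, 129 for Xkrx, 192 for Mtus1 and 511 for Fam53b. Pof1b and Scel came first in that order, and Sh3bgrl2 and Map2 followed Bcl2l15. Of the 9192 loci with an equal direction, 312 had an unadjusted p under 0.05 in each batch, and Fam53b was not among them because of batch 1. When the library labelled siSbsn batch 1 replicate 1 was left out, the log2 fold changes over both batches were 0.46, 0.48, 0.57 and 0.44 for the 4 higher loci and -0.92, -0.93 and -0.46 for the 3 lower ones. When a trend on gene length was removed from each library, Mtus1, Aim1 and Fam53b dropped to 0.26, 0.29 and 0.28, whereas Xkrx was at 0.55.

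Within batch 1 alone the log2 fold changes were 0.65 ± 0.24 for Xkrx, 0.61 ± 0.24 for Mtus1, 0.71 ± 0.25 for Aim1 and 0.54 ± 0.25 for Fam53b (SE, n = 2 against 2). The lower loci were at -1.45 ± 0.41 for Exoc3l4, -1.82 ± 0.28 for Bcl2l15 and -0.71 ± 0.24 for Tm4sf1. Batch 2 alone gave 0.37 ± 0.06, 0.38 ± 0.07, 0.44 ± 0.08 and 0.34 ± 0.08 for the higher loci in the same order, and -0.66 ± 0.22, -0.65 ± 0.15 and -0.37 ± 0.10 for the lower ones (SE, n = 3 against 3). All 7 differences were smaller in batch 2, as were those of 86.3% of the 12559 loci tested in both batches, whose median absolute log2 fold change was 0.37 in batch 1 and 0.10 in batch 2.

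**Figure D2:**
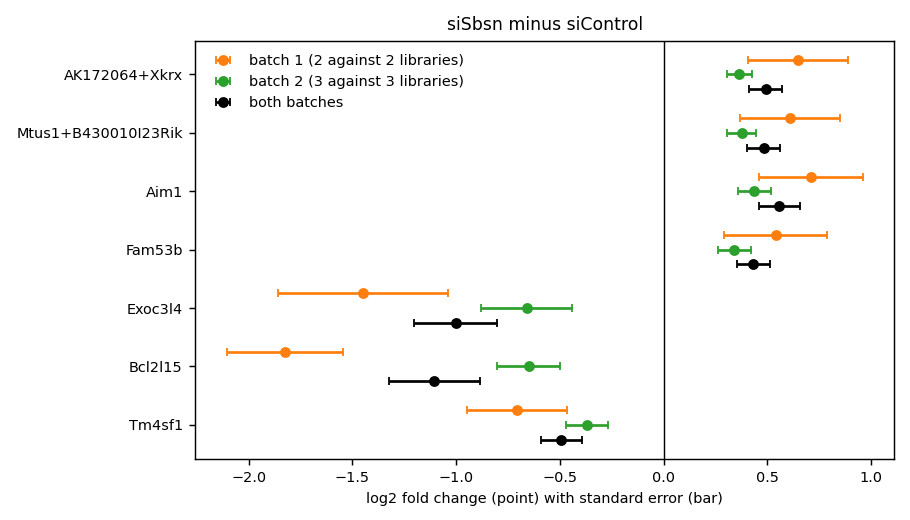
The x axis gives the log2 fold change of siSbsn minus siControl with its standard error for each locus (y axis), in batch 1, in batch 2 and over both batches. Each locus has the same sign in all 3 fits, and the batch 2 point lies nearer to 0 than the batch 1 point.

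The no siRNA libraries did not enter the choice of the loci. For all 7, both lay on the siSbsn side of both siControl libraries of batch 1, higher for the first 4 and lower for the other 3. This was so for 27.5% of tested loci in the higher and 27.6% in the lower direction, and the siControl libraries it rests on were used in the choice. Against siSbsn, the no siRNA libraries were lower than both siSbsn libraries for Xkrx and Fam53b, as for 8.15% of loci, and higher for Bcl2l15, as for 8.42%. For Mtus1, Aim1, Exoc3l4 and Tm4sf1 they overlapped.

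The log2 difference of siControl minus no siRNA was -0.37 for Xkrx, -0.44 for Mtus1, -0.61 for Aim1 and -0.33 for Fam53b, and 1.29 for Exoc3l4, 1.11 for Bcl2l15 and 0.52 for Tm4sf1. That of siSbsn minus no siRNA was 0.27, 0.16, 0.08 and 0.20 for the first 4 and -0.16, -0.73 and -0.19 for the other 3. Both share the no siRNA libraries, and neither is tested because each rests on libraries used in the choice. In size the siControl value was the larger for each of the 7, and nothing is read from this. Among all tested loci the no siRNA libraries lay apart from siControl at 27.5% higher and 27.6% lower. From siSbsn they lay apart at only 8.42% higher and 8.15% lower.

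The mean of siControl and siSbsn against no siRNA is another contrast than the one used in the choice and was tested. It is not fully independent of the choice, since it uses the spread of the same siControl and siSbsn libraries, and loci picked for small p-values tend to have a small spread there. No locus of the 7 passed edgeR's quasi-likelihood test, in which 0% of 13176 loci were called higher and 0% lower, with 125 at an unadjusted p under 0.05 and 0 calls by DESeq2. The largest difference was that of Exoc3l4, at a log2 fold change of 0.57 ± 0.32 (SE, Benjamini-Hochberg adjusted p = 0.825). Aim1 was at -0.27 ± 0.17, Bcl2l15 at 0.19 ± 0.25, Tm4sf1 at 0.16 ± 0.17, Mtus1 at -0.14 ± 0.18, Fam53b at -0.07 ± 0.16 and Xkrx at -0.05 ± 0.17.

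**Figure D3:**
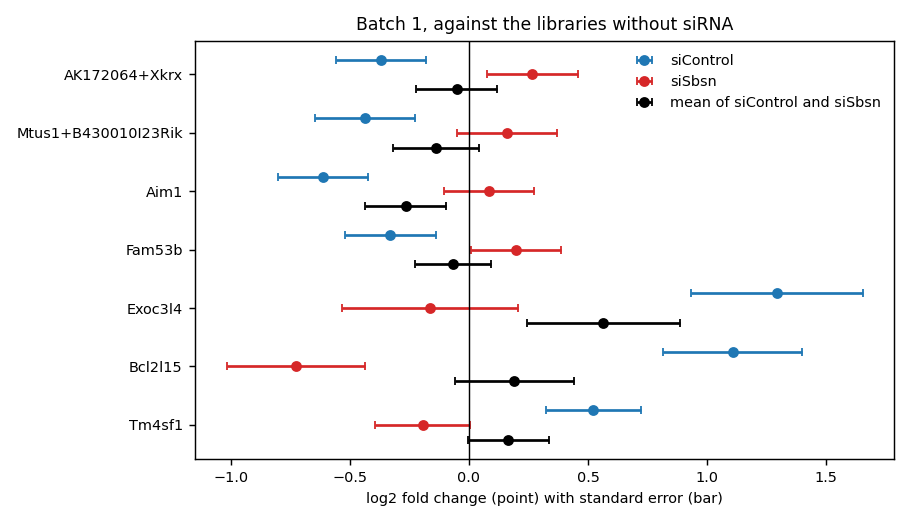
The x axis gives the log2 fold change against the no siRNA libraries of batch 1 with its standard error for each locus (y axis), for siControl, siSbsn and their mean. The siControl points lie farther from 0 than the siSbsn points for each locus, and the means lie between them. Among all tested loci, too, the no siRNA libraries lay apart from siControl more often than from siSbsn.

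Batches differed in level for most of these loci, in a test that shares its residual spread with the contrast that chose them, so that their p-values may be too small. With treatment in the model, 5 of the 7 were called lower in batch 2 than in batch 1 and 0 higher, where 21.3% of all loci were called lower and 16.4% higher. Tm4sf1 was lower by the most, at a log2 fold change of -1.60 ± 0.10 (SE, edgeR quasi-likelihood, Benjamini-Hochberg adjusted p = 2.15e-06). Bcl2l15 was at -1.57 ± 0.22 (edgeR, adjusted p = 0.000324) and Xkrx at -1.37 ± 0.08 (edgeR, adjusted p = 1.76e-06). Exoc3l4 was at -1.21 ± 0.20 (edgeR, adjusted p = 0.000671) and Mtus1 at -0.64 ± 0.08 (edgeR, adjusted p = 0.000135). Fam53b, at 0.20 ± 0.09 (edgeR, adjusted p = 0.0682), and Aim1, at 0.01 ± 0.10 (edgeR, adjusted p = 0.915), did not pass. With the gene length trend removed Aim1 was at -0.34 (edgeR, adjusted p = 0.000905), a reversed sign below the size needed for a call. Summed melanocyte markers, at 715 to 911 CPM in batch 1 and 1007 to 1072 CPM in batch 2, did not overlap between the batches. Summed keratinocyte markers, at 21370 to 47063 CPM and 16577 to 21814 CPM, did. Krt5, at 6489 to 17986 CPM over all libraries, and Krt14, at 9607 to 28816 CPM, dominate that sum. It says little of Krt1, at 26.4 to 335 CPM, and Krt10, at 15.9 to 73.8 CPM. The part of these markers in the member levels was not tested, and in such bulk samples fewer cells of a type and less RNA per cell cannot be told apart.

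**Figure D4:**
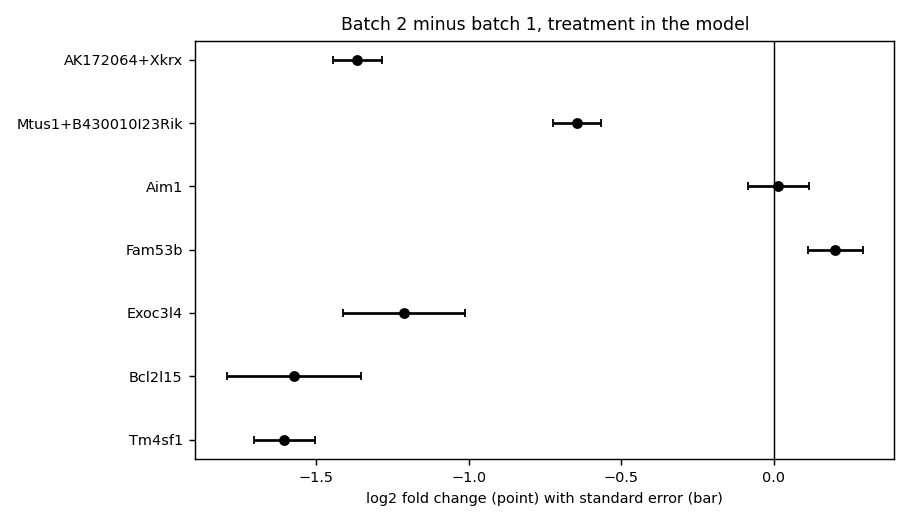
The x axis gives the log2 fold change of batch 2 minus batch 1 with its standard error for each locus (y axis), from a fit with treatment in the model. Xkrx, Mtus1, Exoc3l4, Bcl2l15 and Tm4sf1 lie below 0 by more than 0.5, while Aim1 and Fam53b lie near 0.

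The nearest tested loci on each side are given as a view of the region around each member, at gaps of up to 1100 kb. Nox1+Mir3112+Cstf2, which spans Xkrx, was at a log2 fold change of 0.10 ± 0.10 for siSbsn minus siControl, and Trmt2b at 0.13 ± 0.09. Pdgfrl, 142 bases from Mtus1, was at 0.47 ± 0.28 and Pcm1, 106 kb away on its other side, at 0.32 ± 0.16. Both had the direction of Mtus1. Pdgfrl was counted at a low level, with siControl and siSbsn group means of 0.936 to 1.78 CPM. Its log2 fold change was 0.89 in batch 1 and 0.17 in batch 2. Beside Aim1, Rtn4ip1 was at 0.01 ± 0.08 and Atg5, 263 kb away, at -0.07 ± 0.08. Lhpp, next to Fam53b, was at -0.35 ± 0.17, opposite to it, and Mettl10 at -0.05 ± 0.11. Beside Exoc3l4, AK039023+Cdc42bpb was at 0.21 ± 0.09 and AK080484+Tnfaip2, another Exoc3 relative, at -0.13 ± 0.12.

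Both neighbours of Bcl2l15 had its direction. Ptpn22+AK162361, which encodes a tyrosine phosphatase of lymphocytes, starts 5.18 kb beyond its end and was at -0.87 ± 0.31, with group means of 2.42 and 0.936 CPM in siControl and siSbsn of batch 1 and 0.975 and 0.687 CPM in batch 2. On the other side, Ap4b1 was at -0.32 ± 0.12. The nearest tested loci to Tm4sf1 were far off. Nbea, 1100 kb away, was at 0.44 ± 0.24 and Wwtr1, 154 kb away, at -0.07 ± 0.07. No neighbour was called by edgeR's quasi-likelihood test.

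**Figure D5:**
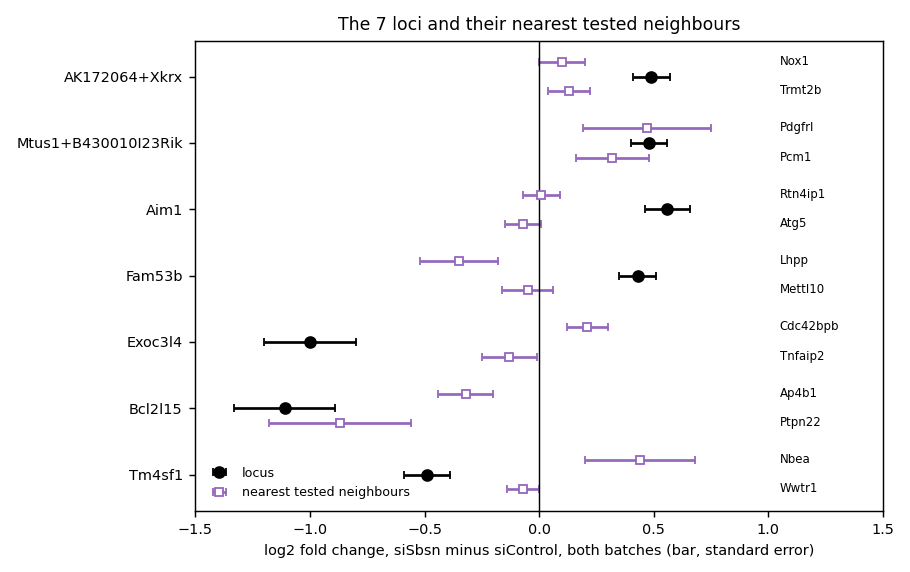
The x axis gives the log2 fold change of siSbsn minus siControl over both batches with its standard error, for each of the 7 loci (filled circles, y axis) and its nearest tested neighbours (open squares, named at the right by 1 of their genes). Both neighbours of Mtus1 and both of Bcl2l15 lie on the same side of 0 as their member. Pdgfrl, at 0.47 beside Mtus1 at 0.48, has the value nearest to its member, but it was counted at a low level.

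Relatives of the members in their gene families were taken from lists. Of 7 XK family genes 4 were tested, with a median log2 fold change of -0.12 for siSbsn minus siControl against 0.005 over all loci. They ran from -0.72 ± 0.40 for Xkr6 to 0.84 ± 0.19 for Xkr4+AK135172. Xkr6 was counted at only 0.0964 to 0.576 CPM, and was at -1.75 in batch 1 and -0.08 in batch 2. Xkr4+AK135172 was at 1.25 and 0.56. edgeR called none of the 4, and DESeq2 called 1. Mtus2 was at 0.00 ± 0.24, Aim1l at 0.10 ± 0.07 and Mina+Crybg3 at 0.00 ± 0.10. Fam53a was at -0.29 ± 0.15 and BC094408+Fam53c+AK216043 at 0.13 ± 0.12. In batch 1 and batch 2 alone, Fam53a was at -0.73 and -0.02 and BC094408+Fam53c+AK216043 at 0.33 and -0.02. Mtus2 was at 0.33 and -0.17, Aim1l at 0.17 and 0.03 and Mina+Crybg3 at -0.16 and 0.08.

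The exocyst subunits and Exoc3 relatives, all 12 tested, had a median of 0.04. AK132885+Exoc3l at -0.14 ± 0.17 and Exoc3l2 at -0.14 ± 0.15 were the lowest and Exoc4 at 0.55 ± 0.24 the highest. In batch 1 and batch 2 alone, AK132885+Exoc3l was at -0.64 and 0.16, Exoc3l2 at -0.22 and -0.11 and Exoc4 at 1.09 and 0.18. Of the BCL2 family 15 of 23 genes were tested, of which 10 lay below 0 and 5 above, with a median of -0.10. Over all loci, 50.7% lay above 0, with a median of 0.005. They ran from Bax at -0.45 ± 0.17 to AK085305+Bcl2 at 0.28 ± 0.14. In batch 1 and batch 2 alone, Bax was at -0.92 and -0.16 and AK085305+Bcl2 at 0.57 and 0.07. edgeR and DESeq2 called none in either list. The 4 other L6 family genes looked up, Tm4sf4, Tm4sf5, Tm4sf19 and Tm4sf20, did not pass the filter on low counts.

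The loci whose log2 level followed each member most closely over the 12 libraries, after centring each batch, are given as a description. The points share libraries, treatment and depth, and the members were themselves chosen for this pattern. Add1 and Cast followed Xkrx (Pearson's r = 0.973 and 0.971), and Esrp1 and Kazn followed Mtus1 (r = 0.973 for each). Arhgef7 and 2510009E07Rik followed Aim1 (r = 0.987 and 0.979), and Kazn and Arhgef7 came first for Fam53b too (r = 0.979 and 0.976). Mocs3 and Nip7 were nearest to Exoc3l4 (r = 0.953 and 0.950). The combined locus LOC100503496+Arsg+AK141353+Amz2+Slc16a6 and Angptl4 were nearest to Bcl2l15 (r = 0.984 and 0.979), and Lamb3+AK005414 and Map2k3 to Tm4sf1 (r = 0.976 and 0.971). The named loci were not alone in this, since between 58 loci for Xkrx and 299 for Aim1 had an r over 0.9, among 12857 tested.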

How the data were processed

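Total RNA of mouse keratinocyte cultures was sequenced in 12 libraries. Per the labels and the study's methods, the authors aligned reads to mm10 with STAR, kept unique reads and counted them on the UCSC KnownGene annotation, and deposited raw counts. Of the 21947 rows, called loci here, 4802 carry several gene names joined by a plus sign or a comma, and some of these span other rows. The sources used here do not give the strand setting of the counting.

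Counts were tested with edgeR 4.0.16 in R 4.3.3 (filterByExpr by treatment, TMM, quasi-likelihood fit, Benjamini-Hochberg over all loci tested). The study's methods use DESeq2 with a batch factor, and the alternative test here was DESeq2 1.42.0. Each SE was derived from the fold change and its F statistic (log2 fold change over the root of F). CPM is the count divided by the sum over loci that pass the filter in all 12 libraries times the TMM factor, and log2 levels used a pseudocount of 0.5 CPM. This CPM scale was adopted after values on another scale, over the loci tested for siSbsn minus siControl, had been seen.

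The 7 members, the gene lists, the motifs and the tests were chosen with earlier results of these data known. Other loci were named by rule: the targeted gene, the 2 loci most correlated with each member, the nearest tested locus on each side and the lowest and highest relative of each family list. Loci ranked beside the members by either order of p-values, all 4 L6 relatives and the keratinocyte markers Krt5, Krt14, Krt1 and Krt10 were named after their values were seen. Differences between siSbsn and siControl of the members were not tested. Intervals from counts cover counting error only.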

Additional observations from a re-analysis of the deposited data

How the results depend on the processing

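For siSbsn minus siControl over both batches, edgeR called 0 loci under each of its alternatives and DESeq2 called 51 higher and 42 lower. In batch 1 alone DESeq2 called 126 higher and 27 lower against 0 in edgeR, and in batch 2 alone 1 higher and 6 lower against 0 and 1. Removing the gene length trend gave 3 higher and 3 lower in batch 2. Without a filter on low counts, 1 locus was called lower in siRNA libraries against no siRNA. The cause of these differences was not tested.

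Batch 1 has 2 replicate numbers, each held by 1 library in each of 3 groups, and no label says what a number marks. The difference of number 1 minus number 2 correlated across loci at 0.387 for no siRNA and siControl and 0.818 for no siRNA and siSbsn. For siControl and siSbsn, the pair compared in the block, it was 0.469. Libraries with the same number thus deviated together, but with 2 numbers this is a hint from the data and does not settle a pairing. With the replicate block, batch 1 alone had 1227 loci called higher and 581 lower, against 0 without it. That fit has only 1 siControl and 1 siSbsn library for each number, so it leaves little from which to estimate the spread. The library labelled siSbsn batch 1 replicate 1, with Sbsn at 1965 CPM, is among them. Over both batches the block called 0, with member values from -1.10 for Bcl2l15 to 0.56 for Aim1, and it changed no other call.

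Leaving out 1 library at a time, the member log2 fold changes over both batches lay at 0.44 to 0.52 for Xkrx, 0.45 to 0.52 for Mtus1, 0.49 to 0.61 for Aim1, 0.38 to 0.47 for Fam53b, -1.09 to -0.86 for Exoc3l4, -1.25 to -0.93 for Bcl2l15 and -0.56 to -0.45 for Tm4sf1. The loci apart in both batches, 659 higher and 542 lower, ranged from 716 to 1307 and from 580 to 1243, as fewer libraries have to be apart. The higher count was 991 without siControl batch 1 replicate 2, 992 without the library labelled siSbsn batch 1 replicate 1, 1307 without siControl batch 2 replicate 2 and 1115 without siSbsn batch 2 replicate 5, and the lower count 1243 and 912 without the last 2. On the CPM scale used first, an alternative chosen after seeing the data, the counts were 662 and 533, and all 7 members stayed apart. With the gene length trend removed 6 of 7 did, and over both batches Mtus1, Aim1 and Fam53b were at 0.26, 0.29 and 0.28. The length used was that of the longest annotated transcript, at 6548, 7525 and 5465 bases for these loci and 2876 bases for Xkrx. For Aim1 it was that of a Crybg1 transcript, although the counted locus is only the 3' part of that gene. Without a batch term Bcl2l15 was at -1.41.

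Signs reversed only for values that had not passed the test. For batch 2 minus batch 1, Aim1 was at -0.34 with the length trend removed, at -0.06 without siControl batch 1 replicate 1, and at -0.01 and -0.03 without siControl batch 2 replicate 1 and 2, in a range of -0.06 to 0.09. For siRNA libraries against no siRNA, leaving out no siRNA replicate 1 gave 0.11 for Xkrx, 0.08 for Mtus1 and -0.12 for Bcl2l15, in ranges of -0.20 to 0.11, -0.33 to 0.08 and -0.12 to 0.59, and removing the length trend gave 0.11 for Mtus1, 0.03 for Aim1 and 0.10 for Fam53b. Counts of 15 to 73 per library limit the precision of Exoc3l4.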
